A study of Rattus norvegicus with 32 samples.

Results

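Oxidative phosphorylation (OXPHOS) is carried out by 5 protein complexes of the inner mitochondrial membrane, and the genes described here are their subunits encoded in the nuclear genome. The members were picked by symbol: the Nduf series of complex I, Sdha to Sdhd of complex II, the Uqcr series of complex III, the Cox4 to Cox8 series of complex IV and the Atp5 series of complex V. Of the 32623 genes in each library, 87 had such a symbol. Leaving out 1 pseudogene, Cox6c-ps1, gave 86 members: 37 named for complex I, 4 for complex II, 9 for complex III, 19 for complex IV and 17 for complex V. Symbols served for the choice and no expression value entered the rule, but earlier results of these data were known when it was made.

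Complexes I and II pass electrons from NADH and succinate to ubiquinone, complex III passes them on to cytochrome c, and complex IV hands them to oxygen. The proton gradient built by complexes I, III and IV drives complex V, the ATP synthase. Nuclear genes supply most subunits, a small set comes from the mitochondrial genome (mtDNA), and both are built into the same complexes. Liver sinusoidal endothelial cells (LSECs) form the fenestrated lining of the hepatic sinusoid.

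RNA of LSECs was sequenced in 32 libraries. In the carbon tetrachloride (CCl4) model, 22 libraries came from Wistar Han rats that were healthy and untreated (n = 6), or had inhaled CCl4 for 2 weeks (acute injury, n = 5), 6 weeks (fibrosis, n = 5) or 12 to 14 weeks (cirrhosis, n = 6). The rats of this model were male, phenobarbital was added to the drinking water, and cells were isolated some days after the last dose. Whether the healthy rats also drank phenobarbital was not given in the sources used here. The other 10 libraries belong to a thioacetamide (TAA) experiment, and 5 of them are labelled control and 5 TAA control rat. Which of these 2 groups received TAA could not be settled from the labels, and the strain is Wistar Han in the labels but Sprague-Dawley in the study's text, so this contrast is given only by its labels. Cells were enriched from digested liver by density gradient, and a sort for a marker is not described. Labels name each sample as a separate library, so p-values measure the spread between these libraries.

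Expected counts per library summed to between 25646531 and 46464289. Scaling factors of the trimmed mean of M-values method (TMM) lay between 0.712 and 0.939 in healthy libraries and between 0.989 and 1.18 in those after CCl4. Levels are given below as CPM, the count scaled to library size and TMM factor, and the scaling was run separately for the 22 and the 10 libraries. Of 10 LSEC markers tested, 8 were lower after acute injury, 9 in fibrosis and 3 in cirrhosis, and 1 was higher in cirrhosis. Their summed level lay at 15892 to 30393 CPM in healthy libraries, 3537 to 4197 after acute injury, 2415 to 3402 in fibrosis and 15803 to 20186 in cirrhosis. In bulk RNA, fewer cells of a type and less RNA per cell cannot be told apart. Hepatocyte markers summed to 1353 to 28628 CPM in healthy libraries, 148 to 933 after acute injury, 1329 to 5262 in fibrosis and 3065 to 14839 in cirrhosis.

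The summed level of all 86 members was lower at each stage of the CCl4 model than in healthy LSECs. Healthy libraries 1 to 6 summed to 8233, 10184, 8881, 9621, 5908 and 5972 CPM. Libraries after acute injury summed to 4869, 4828, 4691, 5286 and 4158 CPM, those in fibrosis to 4109, 4229.6, 3888, 4181 and 4244 CPM and those in cirrhosis to 4868, 4413, 4111, 3956, 4331 and 4633 CPM. No library after CCl4 reached the lowest healthy library. Healthy libraries 5 and 6 stood apart from the other 4, at the lower end of their group. Group means were 8133 ± 1823 CPM (SD, n = 6) in healthy LSECs, 4766 ± 406 CPM (SD, n = 5) after acute injury, 4130.4 ± 145 CPM (SD, n = 5) in fibrosis and 4385 ± 334 CPM (SD, n = 6) in cirrhosis.

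Hepatocyte markers varied widely among the healthy libraries. Healthy libraries 1 to 6 had hepatocyte marker sums of 14928, 26394, 3664, 28628, 1353 and 23922 CPM. Healthy 2 and 4 were the highest and healthy 5 the lowest in both this sum and the member sum, whereas healthy 3 had few hepatocyte reads and a high member sum, and healthy 6 many and a low one. The part of hepatocyte RNA in the member sum was not tested. Without the TMM factors the members held from 0.478% to 0.871% of all counts in healthy libraries, 0.411% to 0.622% after acute injury, 0.415% to 0.485% in fibrosis and 0.416% to 0.487% in cirrhosis. On this scale the acute group overlapped the healthy group, and fibrosis and cirrhosis overlapped it only in healthy 5. In the TAA experiment the members held 0.383% to 0.451% (control) and 0.361% to 0.444% (TAA control), below every healthy library of the CCl4 model. A low share was thus not particular to the groups after CCl4.

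**Figure D1:**
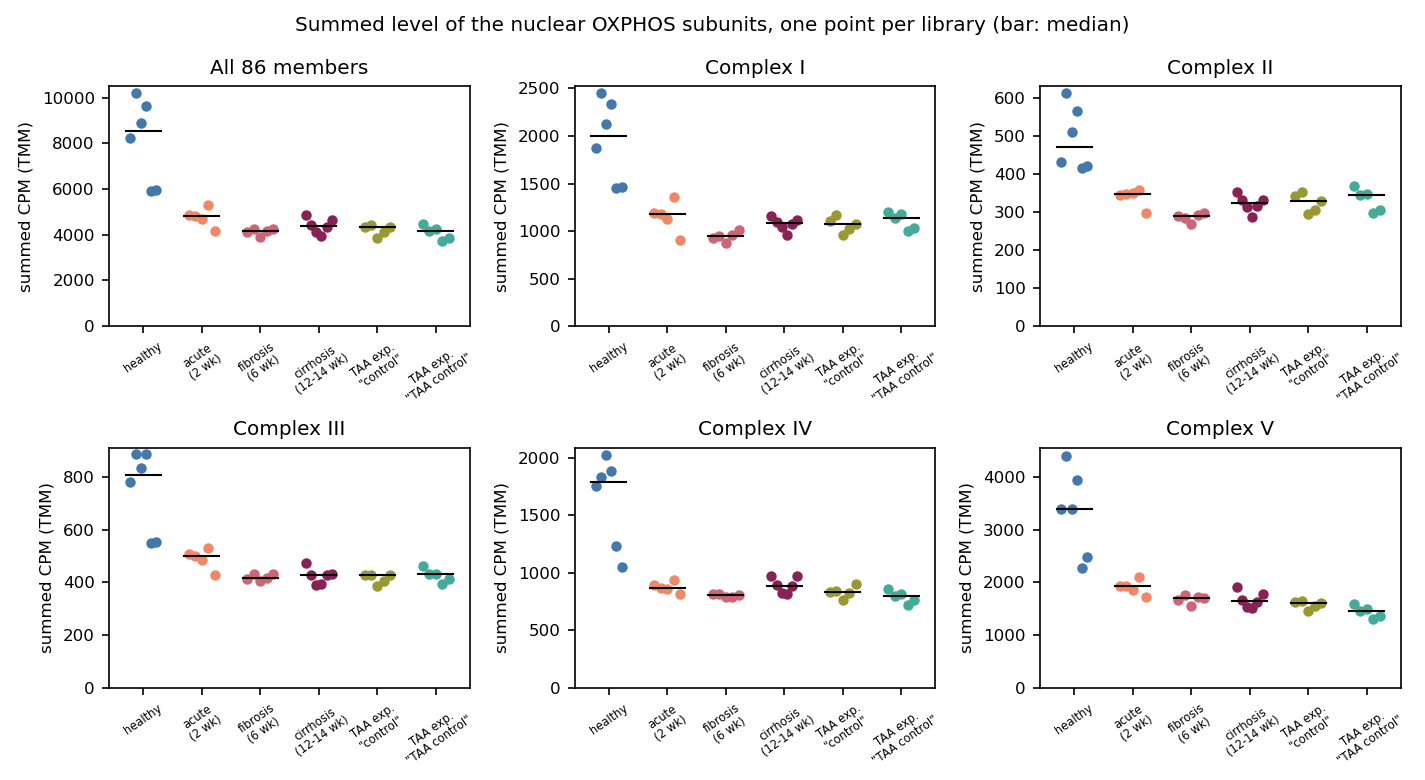
Summed level of the members in CPM after TMM scaling, for all 86 members and for each complex, with 1 point per library and the median as a bar. Healthy libraries lie between 5908 and 10184 for all members, above all 16 libraries after CCl4; the 2 groups of the TAA experiment were scaled separately.

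At the level of single genes, the question was which members differed between healthy LSECs and each stage. A gene was called when it differed more than 1.5-fold and its p-value from limma-voom, before adjustment, was under 0.05. All adjusted p-values below are those of limma-voom with Benjamini-Hochberg adjustment over all genes tested. After acute injury, 78 of the 86 members had enough counts to test, and 38 of them fell and 7 rose, beside calls for 74.1% of all 14317 genes tested. That is 48.7% of the members tested lower and 8.97% higher, beside 38.3% lower and 35.8% higher among all genes. The median log2 fold change was -0.60 over the members and -0.09 over all genes. For 34 members all acute libraries lay below all healthy ones, which held for 30.8% of all genes, and for 5 they all lay above, which held for 29.2%.

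In fibrosis, 49 of 78 members tested fell and 7 rose, 62.8% and 8.97% of them, beside 35.4% and 35.8% of all genes (71.2% in either direction). The median was -0.81 over the members and -0.03 over all genes, and 51 members had all fibrosis libraries below all healthy ones, against 29.1% of all genes, and 3 all above, against 29.7%. In cirrhosis, 45 of 80 members fell and 4 rose, 56.2% and 5% of them, beside 25.7% and 28.8% of all genes (54.5% in either direction). The median was -0.72 over the members and 0.07 over all genes. Here 38 members lay wholly below the healthy range, against 17% of all genes, and 2 wholly above it, against 10.1%. The 3 comparisons share the 6 healthy libraries and so are not independent of each other.

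Part of these directions rests on the scaling. With library size alone in place of TMM, the median of all genes moved to 0.32, 0.37 and 0.42 for the 3 stages in order, and the counts of members became 14 higher and 25 lower, 10 higher and 33 lower, and 11 higher and 29 lower. The members' medians on that scale were -0.19, -0.41 and -0.38, and so lay below the median of all genes by about as much as with TMM. A scaling factor moves all genes of a library alike, so this gap is kept by construction and is no test of the scaling. With healthy libraries 5 and 6 both left out, 41, 50 and 50 members fell and 9, 7 and 6 rose. The shares of all genes called under these settings are not given here, so these counts alone are no result about the members.

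**Figure D2:**
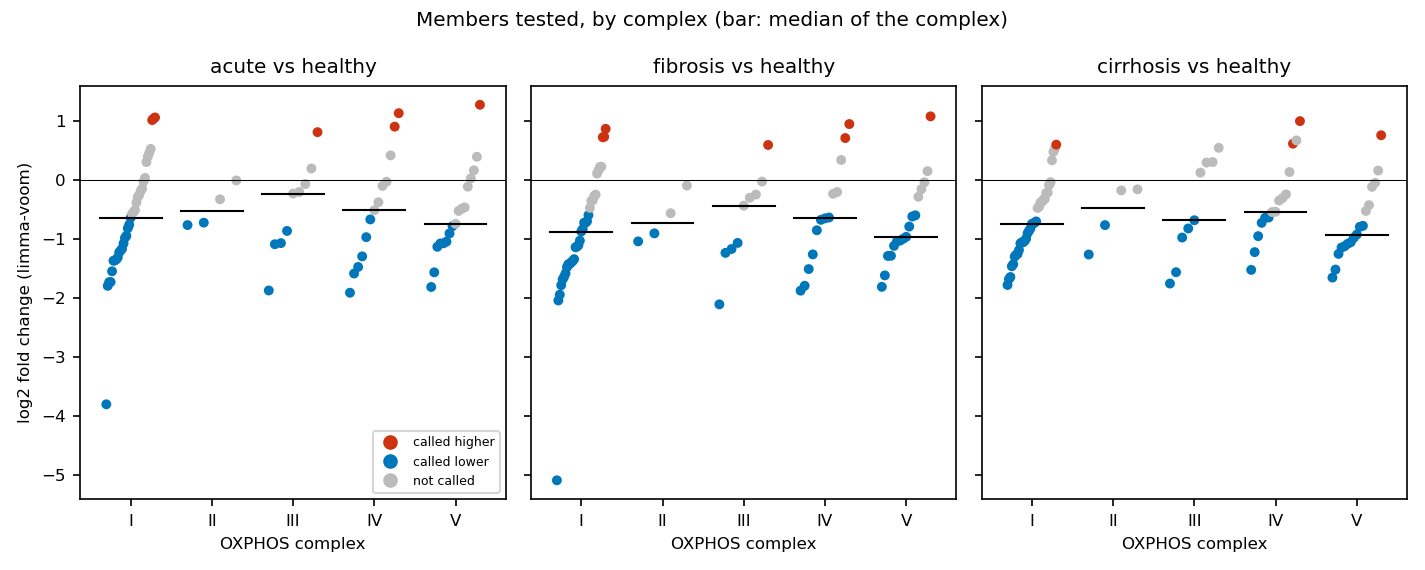
Log2 fold change against healthy LSECs of each member tested, by complex, for acute injury, fibrosis and cirrhosis, with the median of the complex as a bar. Blue points are members called lower, red points members called higher and grey points members not called; the median of every complex lies below 0 at all 3 stages. The lowest point of complex I after acute injury and in fibrosis is Ndufv3.27593, a row with few counts in these 2 groups.

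Across the 78 members tested at all 3 stages, 35 were lower throughout and 4 were higher throughout: Atp5f1, Cox7b, Cox7c and Ndufs4. Another 3, Ndufa5, Ndufs1 and Uqcrc2, were higher after acute injury and in fibrosis but not called in cirrhosis. Members called lower only in fibrosis and cirrhosis numbered 7, those called lower only in fibrosis 4 and those called lower only in cirrhosis 3. Cox6b2, Cox7a2l and Ndufb4 were lower at the first 2 stages and not called in cirrhosis. The remaining 19 passed the test at no stage. No member was called higher at one stage and lower at another. The shares of all genes with these patterns are not given here, so the pattern counts alone are no result about the members.

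Complex I, which oxidizes NADH and pumps protons, had 35 testable members, of which 18 fell after acute injury, 23 in fibrosis and 21 in cirrhosis, while 3, 3 and 1 rose. Among all genes 38.3%, 35.4% and 25.7% were lower at these stages, and 35.8%, 35.8% and 28.8% higher. Counts of the other complexes below are to be read beside the same shares. Ndufv1 carries the flavin that accepts electrons from NADH. Its level lay from 109.9 to 259 with a median of 228 CPM in healthy LSECs, at 78.7, 74.6, 72.9, 87.2 and 58.8 after acute injury, at 57.3, 57.0, 48.8, 55.3 and 61.6 in fibrosis, and from 50.8 to 67.5 with a median of 57.2 in cirrhosis. Every library after CCl4 was thus below the lowest healthy one. The log2 fold changes were -1.31 ± 0.24 (adjusted p = 3.2e-04) after acute injury, -1.68 ± 0.24 (adjusted p = 4.6e-05) in fibrosis and -1.68 ± 0.23 (adjusted p = 1.5e-04) in cirrhosis, with the standard error (SE) after the sign.

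Of the Q module, where ubiquinone is reduced, Ndufs3, Ndufs7 and Ndufs8 fell at the 3 stages. Ndufs8, an iron-sulfur subunit, lay from 38.4 to 93.8 with a median of 66.8 CPM in healthy LSECs, at 17.1, 18.2, 19.3, 23.2 and 12.2 after acute injury and at 14.2, 14.8, 13.8, 15.2 and 14.96 in fibrosis. In cirrhosis it lay from 18.9 to 25.9 with a median of 22.8, between the fibrosis and the healthy libraries without meeting either. Its log2 fold changes against healthy were -1.79 ± 0.27 (adjusted p = 6.4e-05), -2.04 ± 0.25 (adjusted p = 1.5e-05) and -1.46 ± 0.23 (adjusted p = 3.2e-04). Ndufs7, another iron-sulfur subunit, gave -1.19 (adjusted p = 0.002), -1.47 (adjusted p = 4.5e-04) and -1.78 (adjusted p = 2.1e-04), and its difference between cirrhosis and fibrosis, -0.25, was not called.

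Accessory subunits of the membrane arm gave several of the largest falls. Ndufa8 fell by 1.73 on the log2 scale after acute injury (adjusted p = 1.7e-06) and by 1.94 in fibrosis (adjusted p = 3.3e-07), but only by 0.74 in cirrhosis (adjusted p = 0.0031). Ndufb2 gave -1.73 (adjusted p = 3.7e-05), -1.78 (adjusted p = 3.2e-05) and -1.26 (adjusted p = 4.6e-04). Ndufa11, a membrane-arm subunit needed for a stable complex, gave -1.07 (adjusted p = 0.0026), -1.42 (adjusted p = 3.7e-04) and -1.64 (adjusted p = 2.5e-04), and its difference between cirrhosis and fibrosis, -0.16, was not called.

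Against these, 3 complex I genes rose after acute injury. Ndufs1 encodes an iron-sulfur core subunit of the same NADH-oxidizing module as Ndufv1. It lay from 16.3 to 46.7 with a median of 25.4 CPM in healthy LSECs, at 49.2, 52.0, 56.2, 71.0 and 35.3 after acute injury and at 38.2, 39.1, 38.3, 42.6 and 48.1 in fibrosis, so that both groups overlapped the highest healthy library. The log2 fold changes were 1.02 ± 0.27 (adjusted p = 0.0042), 0.73 ± 0.25 (adjusted p = 0.018) and, not called, 0.54 ± 0.22 (adjusted p = 0.054) in cirrhosis. The cirrhosis value passed on library size (0.89), with upper-quartile scaling (0.68) and without healthy replicate 2 or 6 (0.61 and 0.70).

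Ndufs4 encodes an accessory subunit of the NADH module whose inherited loss causes a mitochondrial encephalopathy. It lay from 10.8 to 26.4 with a median of 18.9 CPM in healthy LSECs, at 39.3, 37.1, 31.7, 40.7 and 30.7 after acute injury and at 30.5, 27.6, 25.4, 28.8 and 28.5 in fibrosis. Only the acute group cleared the whole healthy range. Its log2 fold changes were 1.05 ± 0.22 (adjusted p = 7.6e-04), 0.74 ± 0.21 (adjusted p = 0.0071) and 0.61 ± 0.19 (adjusted p = 0.017), the last of which edgeR's quasi-likelihood test and DESeq2 put at 0.56 and 0.57, under the fold threshold. Leaving out cirrhosis replicate 2 or 6 or healthy replicate 1 or 4 also ended that call, with values of 0.57, 0.56, 0.46 and 0.52. Ndufa5, of the Q module, gave 1.07 (adjusted p = 6.0e-05) and 0.87 (adjusted p = 2.6e-04), with every library of both groups above every healthy one.

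Complex II, succinate dehydrogenase, is the only complex with no mtDNA-encoded subunit and is also an enzyme of the citric acid cycle. Of its 4 genes, Sdhb and Sdhc fell at all 3 stages, and Sdha and Sdhd were not called. Sdhb, the iron-sulfur subunit, lay from 66.0 to 114 with a median of 91.5 CPM in healthy LSECs, at 51.6, 53.5, 53.4, 57.7 and 46.2 after acute injury, at 43.95, 43.1, 44.5, 48.1 and 46.2 in fibrosis, and from 47.1 to 61.4 with a median of 50.9 in cirrhosis. All these libraries lay below the healthy range, and the log2 fold changes were -0.72 ± 0.17 (adjusted p = 0.0023), -0.90 ± 0.17 (adjusted p = 4.4e-04) and -0.76 ± 0.17 (adjusted p = 0.0027). On library size alone Sdhb lost its call at each stage (-0.31, -0.50 and -0.42), and without healthy replicate 4 the acute value was -0.58, under the fold threshold.

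Sdhc, a membrane anchor of complex II, gave -0.76 (adjusted p = 0.0034), -1.04 (adjusted p = 4.5e-04) and -1.26 (adjusted p = 2.8e-04). Sdha, the flavoprotein, gave log2 fold changes of -0.32 ± 0.16 (adjusted p = 0.076), -0.56 ± 0.15 (adjusted p = 0.0045) and -0.17 ± 0.15 (adjusted p = 0.35), all under the fold threshold, and its sign turned on library size alone after acute injury (0.09) and in cirrhosis (0.17). Sdhd, the other anchor, gave -0.0026 (adjusted p = 0.99), -0.09 (adjusted p = 0.5) and -0.15 (adjusted p = 0.28).

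Complex III, the cytochrome bc1 complex, had 9 members, of which 4, 4 and 5 fell and 1, 1 and 0 rose. Uqcrc1 and Uqcrc2 encode its paired core proteins, and the pair split. Uqcrc1 lay from 137 to 365 with a median of 335 CPM in healthy LSECs, at 154, 147, 141, 145 and 138 after acute injury, at 124, 131, 115, 120.1 and 126 in fibrosis, and from 71.6 to 89.2 with a median of 77.2 in cirrhosis. The acute libraries overlapped only the lowest healthy library, and the cirrhosis libraries lay below those of every other CCl4-model group. Its log2 fold changes were -0.86 ± 0.25 (adjusted p = 0.0075), -1.06 ± 0.25 (adjusted p = 0.0022) and -1.75 ± 0.25 (adjusted p = 1.6e-04). On library size alone the acute call was lost (-0.44).

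Uqcrc2 moved upward. It lay from 40.9 to 84.2 with a median of 57.8 CPM in healthy LSECs, at 102, 101, 100.04, 109.8 and 80.6 after acute injury and at 79.6, 83.1, 78.2, 83.9 and 88.7 in fibrosis. Healthy library 6, the highest of its group, was the 1 library that these groups overlapped. The log2 fold changes were 0.82 ± 0.18 (adjusted p = 0.0014), 0.60 ± 0.18 (adjusted p = 0.0083) and, not called, 0.55 ± 0.16 (adjusted p = 0.0098) in cirrhosis. Counts of Uqcrc2 were fractional in 30 of the 32 libraries, which in this quantification marks reads divided between genes.

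Uqcr11, a small subunit at the rim of the complex, had the largest fall of complex III after acute injury and in fibrosis, and the largest but for Uqcrc1 in cirrhosis: -1.87 (adjusted p = 3.1e-05), -2.11 (adjusted p = 8.9e-06) and -1.56 (adjusted p = 2.1e-04). Its healthy libraries lay from 63.3 to 149 with a median of 121 CPM, and its fibrosis libraries at 21.8, 24.7, 20.5, 23.2 and 23.2. Uqcr10 and Uqcrq, also small subunits, were lower at all 3 stages. Uqcrfs1, the Rieske iron-sulfur protein that passes electrons toward cytochrome c, gave -0.20 (adjusted p = 0.37), -0.43 (adjusted p = 0.056) and -0.68 (adjusted p = 0.0085), and only the last was called. Upper-quartile scaling, the CPM filter and library size ended that call, at -0.53, -0.58 and -0.33. On library size the acute value of Uqcrfs1 was above 0, at 0.21.

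Complex IV, cytochrome c oxidase, had 13 members with enough counts after acute injury and in fibrosis and 15 in cirrhosis. Of these, 6, 8 and 6 fell and 2, 2 and 2 rose. Cox4i1, the ubiquitous isoform of the regulatory subunit IV, lay from 258 to 657 with a median of 607 CPM in healthy LSECs, at 178, 172, 171, 177 and 163 after acute injury, at 169.8, 172, 157, 165 and 157 in fibrosis, and from 187 to 236 with a median of 212 in cirrhosis. No library after CCl4 met the healthy range. Its log2 fold changes were -1.47 ± 0.24 (adjusted p = 1.2e-04), -1.51 ± 0.24 (adjusted p = 1.1e-04) and -1.22 ± 0.24 (adjusted p = 0.0011), and these calls held on every scaling tried.

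The tissue isoforms of complex IV fell into those that LSECs expressed and those that were barely counted. Cox4i2, the isoform that hypoxia induces in other tissues, had between 0 and 29 counts per library and could be tested only in cirrhosis, at 0.68 (adjusted p = 0.2) against healthy LSECs. Cox6a1, the form outside muscle, fell, with -1.58 (adjusted p = 3.4e-05), -1.79 (adjusted p = 1.2e-05) and -1.52 (adjusted p = 1.8e-04), whereas its muscle counterpart Cox6a2 had at most 11 counts. Cox8a, the general form of subunit VIII, gave -1.29 (adjusted p = 2.9e-05), -1.26 (adjusted p = 3.9e-05) and -0.95 (adjusted p = 9.0e-04), and the muscle form Cox8b had at most 4 counts.

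Cox7a2, the liver form of its subunit, was not called at any stage, with -0.10 (adjusted p = 0.53), -0.20 (adjusted p = 0.19) and -0.34 (adjusted p = 0.048). Its values turned positive on library size at each stage, at 0.32, 0.20 and 0.00037. Cox7a2l, a related protein that joins complexes III and IV in supercomplexes, lay from 95.6 to 162 with a median of 143 CPM in healthy LSECs, at 67.9, 62.4, 75.9, 68.3 and 67.0 after acute injury and at 88.8, 81.1, 82.6, 75.1 and 81.5 in fibrosis. Both groups lay under the healthy range, with -0.97 (adjusted p = 9.5e-05) and -0.67 (adjusted p = 0.0011), though on library size both calls were lost (-0.55 and -0.27). In cirrhosis it was -0.30 (adjusted p = 0.11) and not called, and 0.045 on library size. The muscle form Cox7a1 had between 0 and 43 counts, with fractions in 30 libraries, and gave -0.53 (adjusted p = 0.2) in cirrhosis.

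Cox6b1 stood on 2 rows of the files, told apart here by the end of their gene identifiers, and both had fractional counts in 31 libraries. Cox6b1.34161 gave -0.66 (adjusted p = 0.0075), -0.85 (adjusted p = 0.0014) and -0.63 (adjusted p = 0.013), and Cox6b1.24309 gave -0.51 (adjusted p = 0.026), -0.63 (adjusted p = 0.0077) and -0.54 (adjusted p = 0.025), of which only the fibrosis value was called. On library size Cox6b1.34161 lost its 3 calls (-0.25, -0.45 and -0.29) and Cox6b1.24309 its 1 (-0.24). Leaving out healthy replicate 1, 2 or 4 ended the acute call of Cox6b1.34161 (-0.58, -0.58 and -0.53). Leaving out healthy replicate 2 or 4 or cirrhosis replicate 3 ended its cirrhosis call (-0.53, -0.57 and -0.58). The fibrosis call of Cox6b1.24309 ended without healthy replicate 2 or 4 (-0.56 and -0.57). Cox6b2, known as a testis form, had 6 to 78 counts per library and gave -1.91 (adjusted p = 0.001), -1.87 (adjusted p = 0.0011) and -0.24 (adjusted p = 0.56). Cox5a, a matrix-side subunit near the regulatory subunit IV, gave -0.02 (adjusted p = 0.92), -0.23 (adjusted p = 0.34) and, called, -0.72 (adjusted p = 0.01), and the cirrhosis call was lost with upper-quartile scaling (-0.58) and on library size (-0.38).

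Cox7c and Cox7b, small membrane-spanning subunits of complex IV, rose. Cox7c lay from 24.0 to 37.1 with a median of 29.9 CPM in healthy LSECs, at 64.1, 62.6, 62.7, 74.6 and 57.0 after acute injury, at 57.8, 55.0, 50.4, 54.5 and 57.9 in fibrosis, and from 42.6 to 50.3 with a median of 45.2 in cirrhosis. All libraries after CCl4 lay above all healthy ones. The log2 fold changes were 1.14 ± 0.15 (adjusted p = 2.0e-05), 0.95 ± 0.14 (adjusted p = 5.6e-05) and 0.62 ± 0.13 (adjusted p = 0.0017), and without healthy replicate 1 or 2 the cirrhosis value was 0.57 or 0.56, under the fold threshold.

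Cox7b lay from 14.4 to 33.1 with a median of 15.3 CPM in healthy LSECs, at 34.6, 32.6, 30.2, 40.4 and 29.5 after acute injury, at 30.0, 30.3, 27.4, 27.4 and 27.3 in fibrosis, and from 33.7 to 37.5 with a median of 36.3 in cirrhosis. Healthy 6 was far above the other healthy libraries and inside the acute range, and all cirrhosis libraries lay above it. The log2 fold changes were 0.91 ± 0.22 (adjusted p = 0.0024), 0.72 ± 0.21 (adjusted p = 0.009) and 1.004 ± 0.19 (adjusted p = 7.9e-04).

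Complex V, the ATP synthase, had 17 members by the rule, all of them testable. Of these, 8 fell after acute injury, 12 in fibrosis and 11 in cirrhosis, and 1, Atp5f1, rose at each stage. Atp5b, the catalytic beta subunit, lay from 1052 to 1943 with a median of 1537 CPM in healthy LSECs, at 750.4, 762, 738, 779.9 and 738 after acute injury, at 659, 724, 618, 699.6 and 668 in fibrosis, and from 588 to 783 with a median of 648 in cirrhosis. No library after CCl4 reached the lowest healthy one. Its log2 fold changes were -0.90 ± 0.18 (adjusted p = 5.6e-04), -1.03 ± 0.18 (adjusted p = 2.1e-04) and -1.12 ± 0.18 (adjusted p = 3.6e-04), and on library size the acute call was lost (-0.49). Atp5a1, the alpha subunit, gave -0.46 (adjusted p = 0.043), -0.61 (adjusted p = 0.01) and -0.79 (adjusted p = 0.0034), of which the last 2 were called, and on library size neither was (-0.22 and -0.44). Without healthy replicate 2 or 4 or fibrosis replicate 15 the fibrosis value was -0.51, -0.57 or -0.56, and the call was lost.

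In the central stalk, Atp5d and Atp5e fell while Atp5c1, the gamma subunit, was not called, with 0.17 (adjusted p = 0.43), -0.03 (adjusted p = 0.88) and -0.04 (adjusted p = 0.84). Atp5e, the epsilon subunit, lay from 60.3 to 148 with a median of 115 CPM in healthy LSECs, at 28.1, 29.4, 28.7, 38.4 and 19.9 after acute injury, at 28.3, 28.3, 26.5, 28.5 and 27.4 in fibrosis, and from 41.2 to 54.4 with a median of 49.7 in cirrhosis. The cirrhosis libraries lay above those of both earlier stages and below the healthy ones. Log2 fold changes were -1.81 ± 0.26 (adjusted p = 4.3e-05), -1.81 ± 0.24 (adjusted p = 2.3e-05) and -1.05 ± 0.22 (adjusted p = 0.0017). Atp5d, the delta subunit, gave -1.04 (adjusted p = 0.005), -1.28 (adjusted p = 0.001) and -1.65 (adjusted p = 3.0e-04).

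The c-ring, which turns as protons pass, is encoded by Atp5g1, Atp5g2 and Atp5g3, whose mature proteins are identical. Atp5g2 gave -1.07 (adjusted p = 0.0016), -1.11 (adjusted p = 0.0011) and -1.14 (adjusted p = 0.0014), and Atp5g3 -0.78 (adjusted p = 0.012), -0.99 (adjusted p = 0.0027) and -1.25 (adjusted p = 8.4e-04). Atp5g1 gave -0.74 (adjusted p = 0.074), not called, and then -1.02 (adjusted p = 0.018) and -1.51 (adjusted p = 0.0019). The acute value of Atp5g1 was called by edgeR (-0.90), by DESeq2 (-0.85), with upper-quartile scaling (-0.81) and without healthy replicate 5 (-1.01). On library size the acute call of Atp5g3 (-0.37) and the fibrosis call of Atp5g1 (-0.63) were lost.

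Atp5f1 encodes subunit b of the peripheral stalk, which holds the catalytic head still. It lay from 20.4 to 39.0 with a median of 24.5 CPM in healthy LSECs, at 68.9, 62.8, 57.4, 66.1 and 55.0 after acute injury, at 53.2, 56.1, 47.1, 54.9 and 52.7 in fibrosis, and from 37.5 to 49.7 with a median of 43.7 in cirrhosis. The first 2 groups cleared the healthy range, and cirrhosis overlapped its top. Its log2 fold changes were 1.28 ± 0.18 (adjusted p = 3.4e-05), 1.09 ± 0.17 (adjusted p = 1.2e-04) and 0.76 ± 0.16 (adjusted p = 0.0014). The other stalk subunits did not rise: Atp5o gave -0.48 (adjusted p = 0.057), -0.78 (adjusted p = 0.0032) and -0.77 (adjusted p = 0.0047), of which the last 2 were called lower, and Atp5h and Atp5j were not called at any stage.

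**Figure D3:**
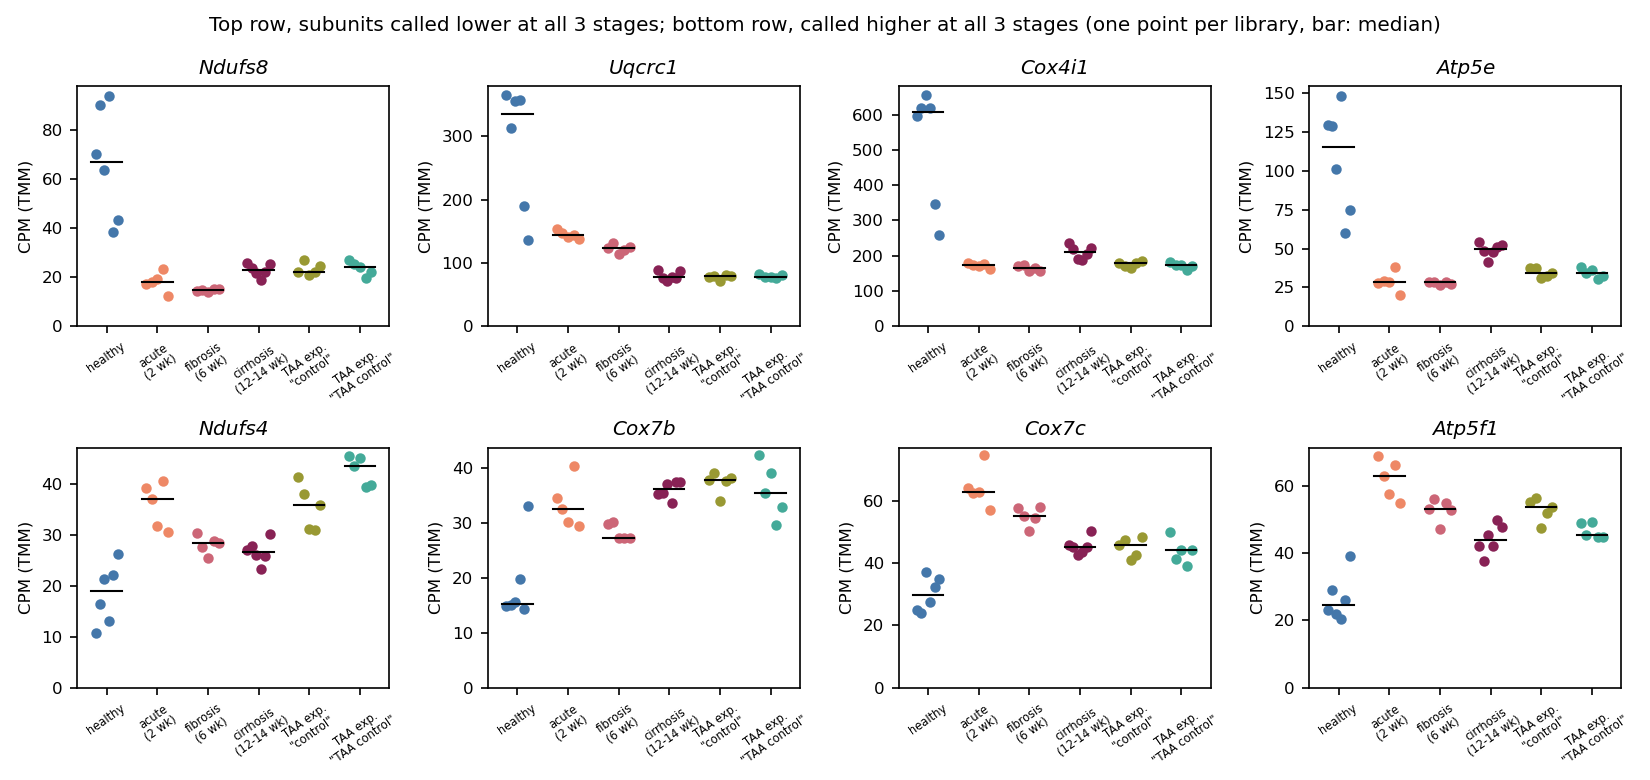
Level in CPM after TMM scaling of 8 members in every library, with 1 point per library and the median as a bar. In the top row (Ndufs8, Uqcrc1, Cox4i1 and Atp5e) healthy libraries lie above all libraries after CCl4, except healthy 6 for Uqcrc1, which lies below the acute ones; in the bottom row (Ndufs4, Cox7b, Cox7c and Atp5f1) they lie lowest, with single healthy libraries reaching into the groups after CCl4 for Ndufs4, Cox7b and Atp5f1.

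The 86 members were next set beside the DNA upstream of their start sites, since genes of this module are known targets of nuclear respiratory factor 1 (NRF1), GABP, ERRA, YY1 and SP1. RefSeq promoters of build GRCr8 were matched for 71 members, 56 by current symbol and 15 by an older one. Motifs were searched on both strands of the 250 bases before the start, as GCGC and TGCGC parted by any base for NRF1, CCGGAAG for GABP, AAGGTCA for ERRA, AAGATGGCG for YY1, CCAAT for the CCAAT box and GGGCGG for SP1. Of the 71 promoters, 14.1% held the NRF1 letters, 26.8% the GABP letters and 9.86% the ERRA letters, beside 4.17%, 7.74% and 3.77% of all 27457 promoters. CCAAT stood in 31% and GGGCGG in 35.2%, beside 34.3% and 32.4%, and the YY1 letters in 1.41%, beside 0.736%.

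Among the 35 members lower at all 3 stages, 27 had a promoter, and 4 held the NRF1, 8 the GABP and 5 the ERRA letters. Of the 7 members higher after acute injury, 1 held the NRF1 letters (Ndufa5), 2 the GABP letters (Ndufs1 and Uqcrc2) and 0 the ERRA or CCAAT letters. The 4 that were higher at all 3 stages held only GGGCGG, in Atp5f1. Their median GC content over these 250 bases was 42.8%, beside 55.6% for the 27 and 52% for all promoters. These are descriptions of letters in 1 window, over few promoters, and say nothing of binding.

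The 120 bases before the start site are printed for 4 members that fell and the 4 that rose at all 3 stages. Those that fell were picked as examples from the 27 with a promoter, so the printed sequences do not measure a difference between the sets. Others of the 27, such as Ndufv1 and Atp5d, held none of the 6 motifs in the 250 bases. The NRF1 letters stood in 14.8% of the 27 and 14.3% of the 7 higher after acute injury, and the GABP letters in 29.6% and 28.6%. Shares were 18.5% and 0% for ERRA, 37% and 0% for CCAAT and 33.3% and 14.3% for SP1. Capitals mark any of the 6 motifs on either strand, and each sequence reads 5′ to 3′ on the strand of its gene. In build GRCr8 the members that fell lie as follows: Ndufs8 at chr1:210573699-210573818 on the minus strand, Uqcrc1 at chr8:118468103-118468222 on the plus strand, Cox4i1 at chr19:65630263-65630382 on the plus strand and Atp5e at chr3:183680173-183680292 on the minus strand.
Ndufs8: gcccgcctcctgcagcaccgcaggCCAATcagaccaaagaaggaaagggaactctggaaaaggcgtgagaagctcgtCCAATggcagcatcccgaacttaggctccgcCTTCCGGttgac
Uqcrc1: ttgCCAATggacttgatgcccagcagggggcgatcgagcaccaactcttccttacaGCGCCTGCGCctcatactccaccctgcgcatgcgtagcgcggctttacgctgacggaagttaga
Cox4i1: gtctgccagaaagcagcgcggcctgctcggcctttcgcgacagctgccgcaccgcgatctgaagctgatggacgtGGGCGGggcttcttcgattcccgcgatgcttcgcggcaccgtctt
Atp5e: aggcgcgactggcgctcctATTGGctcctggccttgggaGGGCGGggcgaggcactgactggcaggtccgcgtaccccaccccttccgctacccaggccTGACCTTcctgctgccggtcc
The members that rose lie as follows: Cox7c at chr2:18579171-18579290 on the minus strand, Cox7b at chrX:75148916-75149035 on the plus strand, Atp5f1 at chr2:196123738-196123857 on the minus strand and Ndufs4 at chr2:47794915-47795034 on the minus strand.
Cox7c: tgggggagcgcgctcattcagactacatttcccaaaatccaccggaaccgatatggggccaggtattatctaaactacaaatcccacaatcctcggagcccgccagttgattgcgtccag
Cox7b: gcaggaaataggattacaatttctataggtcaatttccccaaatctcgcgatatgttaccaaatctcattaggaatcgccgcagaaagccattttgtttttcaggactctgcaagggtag
Atp5f1: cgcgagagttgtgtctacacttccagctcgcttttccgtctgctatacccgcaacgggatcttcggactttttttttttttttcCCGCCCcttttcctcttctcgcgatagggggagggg
Ndufs4: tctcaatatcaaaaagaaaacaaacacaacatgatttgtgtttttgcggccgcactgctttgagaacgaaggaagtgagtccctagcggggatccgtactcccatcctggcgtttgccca

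Ndufs8 held 2 CCAAT boxes and the GABP letters in this stretch, Uqcrc1 a CCAAT box and the NRF1 letters, Cox4i1 the SP1 letters, and Atp5e those of CCAAT, SP1 and ERRA. Of the 4 that rose, Atp5f1 held the SP1 letters and Cox7c, Cox7b and Ndufs4 none of the 6 motifs.

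Between acute injury and fibrosis no member met the call. Of 78 members tested, limma-voom called 0, as did edgeR and DESeq2, while 19 had an unadjusted p-value under 0.05 with no fold limit. The share of all genes under that p-value is not given here. The background was 15.7% of all 13931 genes called (14.3% higher and 1.39% lower). By adjusted p-value without a fold limit limma-voom gave 1 higher and 2 lower, beside 12.3% and 8.01% of all genes. The median log2 fold change was -0.16, beside 0.004 over all genes. A value below 0 was found for 67 of the 78 members, beside 6907 of all 13931 genes. For 11 members all fibrosis libraries lay under all acute ones, against 10.7% of all genes, and for 0 they all lay above, against 6.48%. The single rise by adjusted p-value was Cox7a2l, at 0.34 ± 0.07 (adjusted p = 0.0094), and Ndufa11 and Ndufv1 were the 2 falls, at -0.31 ± 0.10 (adjusted p = 0.047) and -0.32 ± 0.10 (adjusted p = 0.048). The summed level of complex I was 1152 ± 163 CPM (SD, n = 5) after acute injury and 945 ± 48.4 CPM (SD, n = 5) in fibrosis, with acute 8 at 904 CPM inside the fibrosis range.

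From fibrosis to cirrhosis, the median log2 difference was 0.07 over the members and 0.04 over all genes, and single members ranged from -0.63 to 3.90. Of 80 tested, 13 were called higher and 1 lower, 16.2% and 1.25% of them, beside 34.5% and 29.7% of all 15186 genes (64.2% in either direction). Without a fold limit, adjusted p-values called 33 higher and 16 lower, beside 39.7% and 38.7% of all genes. For 28 members all cirrhosis libraries lay above all fibrosis ones, and for 8 all lay below, against 30.8% and 32.5% of all genes.

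Among the larger rises of well-counted members were those of Ndufa8, Ndufb4, Atp5e and Atp5i, all of which had been lower in fibrosis than in healthy LSECs. Ndufa8 lay at 25.2, 23.0, 23.1, 23.0 and 26.6 CPM in fibrosis and from 47.2 to 72.3 with a median of 57.8 in cirrhosis, with a log2 fold change of 1.26 ± 0.12 (adjusted p = 1.6e-06). The 2 groups stood apart, and the cirrhosis libraries stayed below the healthy median. Ndufb4, a membrane-arm accessory subunit, gave 1.11 ± 0.10 (adjusted p = 8.3e-07), Atp5e 0.81 ± 0.08 (adjusted p = 1.1e-06) and Atp5i, subunit e at the dimer interface, 0.69 ± 0.12 (adjusted p = 2.1e-04).

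Further rises were called for Ndufc1 (0.73, adjusted p = 0.002), 1 of the 2 rows of Uqcrb (0.66, adjusted p = 3.6e-06), Ndufs8 (0.63, adjusted p = 5.1e-05) and Uqcr11 (0.60, adjusted p = 9.2e-05). Uqcrb binds ubiquinone near the membrane, and its other row gave 0.38 (adjusted p = 7.7e-04). Few counts stood behind the rises of Ndufv3.27593 (3.90, adjusted p = 4.1e-04), Cox4i2 (1.84, adjusted p = 0.0032), Cox7a1 (1.80, adjusted p = 0.0096) and Cox6b2 (1.67, adjusted p = 1.8e-04). The 1 fall was Uqcrc1, at -0.63 ± 0.07 (adjusted p = 6.1e-06), with all cirrhosis libraries below all fibrosis ones. With upper-quartile scaling it was -0.54, and its call was lost. By complex, the median was 0.38 over the 9 members of complex III and 0.33 over the 15 of complex IV, and 0.03 in both complex I and complex V.

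**Figure D4:**
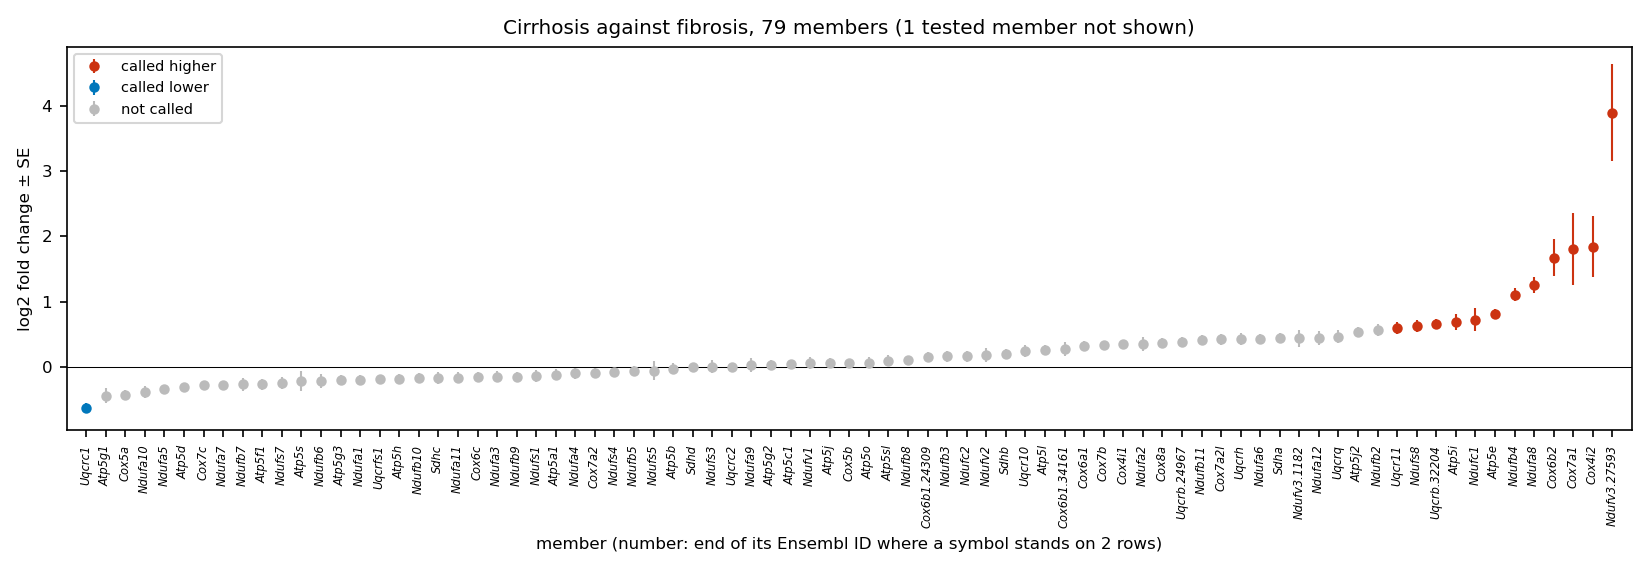
Log2 fold change and standard error of the members tested in cirrhosis against fibrosis, in rising order, with 1 of the 80 not shown. The members called higher lie at the right, from Uqcr11 at 0.60 to Ndufv3.27593 at 3.90, Uqcrc1 at -0.63 is the 1 called lower, and the other 66 are grey.

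Markers of other cells moved in the same comparison. LSEC markers (9 of 10), hepatocyte markers (9 of 10), macrophage markers (9 of 9) and stellate cell markers (7 of 9) were higher in cirrhosis than in fibrosis. Stellate cell markers summed to 38.3 to 176 CPM in fibrosis and 489 to 1703 in cirrhosis, and macrophage markers to 33.2 to 211 and 796 to 2827. Against healthy LSECs, macrophage markers were lower after acute injury and in fibrosis (9 of 9 each), hepatocyte markers in 10, 7 and 4 of 10 at the 3 stages. Stellate cell markers were lower after acute injury (6 of 8, with sums of 9.07 to 31.8 CPM beside 166 to 605 in healthy libraries), moved both ways in fibrosis (3 higher and 3 lower of 8) and were higher in cirrhosis (8 of 9). Their part in the values of the members was not tested.

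In the TAA experiment 2 members were called between the labelled groups. The summed level was 4099 ± 312 CPM (SD, n = 5) in the group labelled TAA control and 4214 ± 235 CPM (SD, n = 5) in the group labelled control, and their ranges overlapped. Of 79 members tested, 1 was called higher and 1 lower in the former, 1.27% each, beside 13.5% and 15.9% of all 14376 genes (29.4% in either direction). The median was 0.02 over the members and 0.03 over all genes. Adjusted p-values without a fold limit called 7 higher and 6 lower, beside 25.9% and 23.8% of all genes. For 4 members the group labelled TAA control lay wholly above the other, and for 2 wholly below, against 18% and 17.4% of all genes. TAA control libraries 14 and 15 differed much less than all other pairs did (chi-square per degree of freedom 2.96, beside 25.9 to 65.1 for the other pairs of their group), and with their mean as 1 library (n = 4) 1 member was called higher and 2 lower of 80. Whether they come from separate animals was not given in the sources used here.

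Ndufv3.27593 was the member called higher, at 0.84 ± 0.20 (adjusted p = 0.0057), with 3.77, 3.07, 3.62, 3.20 and 3.07 CPM in the group labelled TAA control and 2.43, 2.14, 1.31, 1.30 and 2.42 in the other. The other row of this gene, Ndufv3.1182, gave 0.51 ± 0.10 (adjusted p = 0.0017), short of the call by the fold. Both rows had groups that did not overlap, both lying higher in the group labelled TAA control. Ndufv3 encodes an accessory subunit of the NADH module made in a short and a long form. Cox6b2 was the member called lower, at -1.36 ± 0.45 (adjusted p = 0.026), on few counts, and under a CPM filter it was not tested. With control replicate 4, TAA control replicate 12 or TAA control replicate 13 left out, 4 members were called in each case.

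Smaller differences stood under the fold threshold. Atp5a1 lay at 206, 198, 193, 168 and 170.1 CPM in the group labelled TAA control and at 244, 244, 207, 237 and 236 in the group labelled control, a log2 difference of -0.32 ± 0.08 (adjusted p = 0.0062) with no overlap. The 4 members of complex V with an adjusted p-value under 0.05 and a value below 0 were Atp5a1, Atp5b, Atp5f1 and Atp5g2, and 6 members of complex I had one with a value above 0. Of these, Ndufv3.27593 alone reached the fold threshold. The counts were 4 of 17 members tested in complex V and 6 of 35 in complex I. By adjusted p-value alone 23.8% of all genes were lower and 25.9% higher, so neither count exceeded the share of all genes. Stellate cell markers summed to 1701 to 4678 CPM in the group labelled control and 205 to 306 in the group labelled TAA control, with 7 of 9 lower in the latter. Hepatocyte markers were lower there in 7 of 10, and LSEC and macrophage markers higher in 4 of 10 and 3 of 9. Their part was not tested.

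The 13 subunits encoded by mtDNA, which belong to the same complexes, had no member called lower against healthy LSECs. After acute injury 7 were higher and 0 lower, in fibrosis 10 and 0, and in cirrhosis 10 and 0, with medians of 0.68, 1.001 and 1.08. Mt-nd2, of complex I, gave 2.01 (adjusted p = 3.5e-04), 2.27 (adjusted p = 1.4e-04) and 1.38 (adjusted p = 0.0063). Mt-co1, the catalytic core of complex IV, gave 0.11 (adjusted p = 0.66) and 0.56 (adjusted p = 0.035), neither called, and 0.62 (adjusted p = 0.015). From fibrosis to cirrhosis 5 fell, all of complex I. The libraries were made from polyadenylated RNA.

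A ratio of counts within a library needs no scaling between libraries. Nuclear subunit counts per mtDNA subunit count were 0.684, 2.01, 1.22, 1.21, 0.558 and 0.395 in healthy libraries 1 to 6, 0.366, 0.449, 0.450, 0.423 and 0.340 after acute injury, 0.285, 0.300, 0.248, 0.245 and 0.281 in fibrosis and 0.309, 0.281, 0.257, 0.279, 0.355 and 0.285 in cirrhosis. Fibrosis and cirrhosis lay below every healthy library, and the acute group overlapped healthy 6 alone. The groups of the TAA experiment lay at 0.184 to 0.221 (control) and 0.179 to 0.272 (TAA control), also below every healthy library. A low ratio was thus not particular to the groups after CCl4. The spread among healthy libraries, from 0.395 to 2.01, was wider than in any other group.

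Set against the mitochondrial ribosome, the picture differed by stage. Counts of the nuclear subunits per count of mitochondrial ribosomal proteins were 6.56, 6.06, 7.37, 6.12, 5.96 and 5.76 in healthy LSECs, 2.79, 2.77, 2.83, 2.67 and 3.06 after acute injury and 3.10, 3.14, 3.08, 2.99 and 2.94 in fibrosis. In cirrhosis they were 5.64, 5.38, 5.19, 5.06, 5.22 and 5.13, under every healthy library and above all of the earlier stages. The groups of the TAA experiment lay at 5.09 to 5.34 (control) and 4.53 to 4.75 (TAA control), without overlap.

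**Figure D5:**
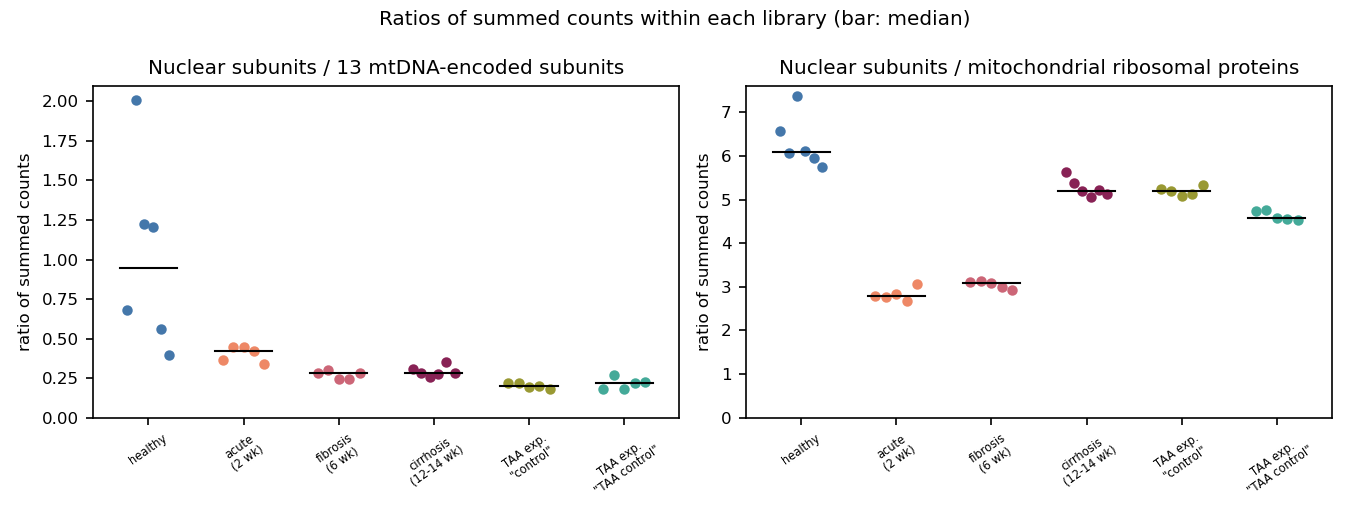
Ratio of the summed counts of the 86 members to those of the 13 mtDNA-encoded subunits (left) and of the mitochondrial ribosomal proteins (right), with 1 point per library and the median as a bar. On the left the healthy median is 0.946 and those of fibrosis and cirrhosis are 0.281 and 0.283; on the right the healthy median is 6.09, the acute and fibrosis medians are 2.79 and 3.08, and cirrhosis lies at 5.21.

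The mitochondrial ribosome, which translates the mtDNA-encoded subunits, had 73 genes tested, of which 33 rose and 10 fell after acute injury, 24 and 12 did so in fibrosis, and 6 and 31 in cirrhosis. On library size the counts were 49 higher and 6 lower, 37 and 7, and 13 and 16. Mrpl47 gave 3.51, 3.15 and 1.41, with adjusted p = 6.6e-08, 2.1e-07 and 3.5e-04. Mrps24 fell by 1.51 on the log2 scale after acute injury (adjusted p = 7.8e-05) and by 1.83 in fibrosis (adjusted p = 1.2e-05).

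Protein import carries the nuclear subunits into mitochondria. Of 25 import genes tested, 18 rose and 1 fell after acute injury, 15 and 3 in fibrosis, and 9 and 10 in cirrhosis. On library size these became 20 and 1, 18 and 1, and 9 and 4. Tomm70, a receptor of the outer membrane, gave 3.70 (adjusted p = 2.7e-07), 3.57 (adjusted p = 5.5e-07) and 1.09 (adjusted p = 0.0055). Timm17b, of the inner membrane translocase, gave -1.69 (adjusted p = 3.2e-04), -2.32 (adjusted p = 4.6e-05) and -1.57 (adjusted p = 5.8e-04).

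Assembly factors of complex I (15 tested) gave 7 higher and 2 lower after acute injury, 7 and 3 in fibrosis and 2 and 3 in cirrhosis, or 8 and 1, 7 and 2, and 4 and 3 on library size. Ndufaf4, which acts early in that assembly, gave 4.69, 4.30 and 1.30, with adjusted p = 7.8e-08, 2.2e-07 and 0.0054. Those of complexes II to V (32 tested) gave 14 and 4, 11 and 7, and 2 and 13, and on library size 17 and 2, 16 and 3, and 7 and 5. Cox11, which delivers copper to complex IV, gave 2.70 (adjusted p = 9.9e-07), 2.47 (adjusted p = 2.2e-06) and 0.94 (adjusted p = 0.0058), and Surf1, another complex IV assembly factor, -1.21 (adjusted p = 1.6e-04) and -1.33 (adjusted p = 7.5e-05) at the first 2 stages.

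Among 19 regulators of mitochondrial biogenesis tested, 9 rose and 2 fell after acute injury, as in fibrosis, and 6 rose and 4 fell in cirrhosis. On library size 11 rose and 2 fell, 11 and 1, and 11 and 2. Hif1a, the oxygen-regulated factor, gave 3.23 (adjusted p = 1.4e-06), 3.13 (adjusted p = 1.9e-06) and 1.503 (adjusted p = 0.001). Tfb2m, a factor for mtDNA transcription, gave 2.86 (adjusted p = 4.8e-07), 2.70 (adjusted p = 7.6e-07) and 0.97 (adjusted p = 0.0034). The coactivator Ppargc1a fell by 2.13 on the log2 scale after acute injury (adjusted p = 0.0042) and by 1.70 in fibrosis (adjusted p = 0.019), at levels under 1 CPM in the mean. Esrrg, a nuclear receptor of respiratory genes, fell by 6.56 (adjusted p = 1.5e-06) and 4.24 (adjusted p = 2.6e-06), with means of 3.4 CPM in healthy LSECs and 0.0426 and 0.161 at these stages. In cirrhosis the largest falls were of Polrmt, the mitochondrial RNA polymerase (-1.38, adjusted p = 1.2e-04), and Esrra (-1.31, adjusted p = 4.4e-04).

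Of the 86 members, 6 were tested in no comparison. Cox7b2 had 0 counts in all 32 libraries, Cox8c had at most 2 and Cox8b at most 4. Cox6a2 had at most 11, and Ndufs6 and Ndufa13 had at most 8 and 10 counts with fractions in 27 and 30 libraries. Ndufs6 and Ndufa13 are structural subunits of complex I, so a count this low is given as what the files hold at these rows, not as an absence of the transcript. Cox4i2 and Cox7a1 were tested in 2 and 3 of the 6 comparisons.

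Reads shared with near-identical copies limit other members. Counts were fractional in at least 20 libraries for 26 members and in no library for 47. Uqcrb, Cox6b1 and Ndufv3 stood on 2 rows each, and their rows should be read as pairs. Names also limit the list: Ndufa4 is now counted with complex IV, and Atp5s and Atp5sl, which the rule takes in, are now named Dmac2l and Dmac2. Ndufa4 and Atp5s were called at none of the 3 stages. Counts of complex V without Atp5sl would be 1 lower at each stage, since it fell at all 3.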

How the data were processed

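RNA of 32 LSEC libraries was analysed from gene-level expected counts deposited by the authors. The submitters' processing notes name FastQC, Trim Galore, STAR, RSEM, limma and the build Rnor_6.0, with no versions in the sources used here. Because RSEM divides reads that match several genes, 10.3% to 12.4% of genes per library had a count that was not whole (by more than 0.005). Counts were rounded for testing.

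Each comparison used the libraries of its 2 groups, with filterByExpr of edgeR 4.0.16, TMM scaling and limma-voom (limma 3.58.1, R 4.3.3). Genes that differed more than 1.5-fold with p under 0.05 before adjustment were called. Levels are CPM after TMM, computed separately for the 22 CCl4-model and 10 TAA-experiment libraries. Alternatives were edgeR's quasi-likelihood test, DESeq2 1.42.0, other scalings, filters and fits, and each library left out. Members and gene lists were chosen with earlier results of these data known. Genes named were core subunits, isoform groups, the 5 largest called rises and falls per comparison with a mean log2 CPM of at least 3, untested members, members called against the majority, and the 2 largest rises and falls of each list; results of 1 gene are not reported here. On simulated data (acute against healthy, 14416 genes, 200 changed 2-fold), limma-voom at an adjusted p under 0.05 recovered 97% of the changed genes, and 3% of its calls were false. The real comparison called 74.1% of all genes, at an unadjusted p with a fold limit. The simulated rates are therefore not error rates of the calls reported here. The closest pair of libraries, TAA control 14 and 15, differed beyond sampling noise (chi-square per degree of freedom 2.96) but far less than any other pair within a group (23.6 or more), and both were kept as labelled. Figures used Python 3.11.15 and matplotlib 3.10.9.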

Additional observations from a re-analysis of the deposited data

Results flagged for a closer look

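Of 96 groups of library values examined, 8 held 1 library that stood far from the others of its group, where 4.8 would be flagged by chance at 1 in 20. Acute 8 was low for the summed level of complex II, at 297 CPM beside 344 to 360 in the other acute libraries, and for Sdha, at 107 CPM beside 125 to 130. Cirrhosis 2 was high for Ndufs1, at 47.7 CPM beside 34.6 to 36.2. Cirrhosis 1 was high for Uqcrfs1, at 73.7 CPM beside 58.8 to 63.6. Fibrosis 15 was low for Atp5a1, at 234 CPM beside 264 to 277. In the TAA-experiment group labelled control, replicate 2 was high for Ndufv1, at 54.9 CPM beside 51 to 51.7. Replicate 3 of that group was low for Uqcrc1, at 72 CPM beside 78.3 to 80.3, and for Atp5a1, at 207 CPM beside 236 to 244.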

How the results depend on the processing

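Of 262 summary values under other settings or with 1 library left out, 249 kept their direction and stayed close to the values reported. On library size alone the members' median was -0.193 for acute injury, -0.41 for fibrosis, -0.375 for cirrhosis and -0.0398 for cirrhosis against fibrosis, and upper-quartile factors put the last at 0.156; the median of all genes moved with them, to 0.323, 0.367, 0.416, -0.0682 and 0.128. Adjusted p-values with no fold limit called 3 members in fibrosis against acute injury, 49 in cirrhosis against fibrosis and 13 in the TAA experiment. Without a low-count filter 1 was called in fibrosis against acute injury, and with a CPM filter 1 in the TAA experiment.

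With each library left out in turn, 42 to 51 members were called after acute injury (median -0.659 to -0.496), 51 to 57 in fibrosis (-0.909 to -0.729), 46 to 53 in cirrhosis (-0.796 to -0.647), 0 in fibrosis against acute injury (-0.216 to -0.103), 11 to 15 in cirrhosis against fibrosis (0.0357 to 0.133) and 2 to 4 in the TAA experiment (-0.0167 to 0.0633). With TAA-experiment replicates 14 and 15 averaged, 3 were called. Shares of all genes called in these fits are not given here.

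Values that turned sign were not called under any of these settings. On library size these were, after acute injury, Sdha 0.0897, Uqcrfs1 0.21, Cox5a 0.39 and Cox7a2 0.32, in fibrosis Cox5a 0.17 and Cox7a2 0.20, and in cirrhosis Cox7a2l 0.0448, Sdha 0.17, Cox6b2 0.0742 and Cox7a2 0.000365. After acute injury Cox5a was 0.0344 with RLE factors and 0.0894 without a low-count filter, where Cox7a2 was 0.0169. With 1 library left out Cox5a ranged from -0.19 to 0.13 and Cox7a2 from -0.14 to 0.0399. The cause was not tested. Of 1089 values of named genes under other settings, 1023 kept their side of the threshold, 27 lost and 26 gained a call. Gains under 3 or more of these settings were of Atp5g1 (after acute injury, -1.15 to -0.77 over 8 settings), Cox6b1.24309 (after acute injury, -0.69 to -0.62 over 4) and Ndufs1 (in cirrhosis, 0.62 to 0.89 over 5).

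The replicate block, over the numbers that both groups share, gave 49 members called after acute injury (50 in the same libraries without the block) and 49 in cirrhosis. For these fits, too, the shares of all genes called are not given. Deviations of same-numbered libraries correlated at 0.0443, 0.0532, 0.128 and 0.147 for acute injury and at -0.211 to 0.23 for cirrhosis, so the numbers were not taken as pairs.

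Members with few counts, and those with reads shared between copies, limit what these libraries can show.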

Other observations

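Transcripts of proteins that shape the inner membrane around these complexes were also counted. Of 11 genes of the MICOS complex, the prohibitins and the fusion and fission machinery, 9 rose and 1 fell after acute injury, as in fibrosis, and 7 rose and 3 fell in cirrhosis. The counts here and in the 2 paragraphs below stand beside 35.8%, 35.8% and 28.8% of all genes higher at the 3 stages. Those lower were 38.3%, 35.4% and 25.7% of all genes. Dnm1l, which drives mitochondrial fission, gave log2 fold changes of 3.05 (adjusted p = 9.3e-06), 2.63 (adjusted p = 4.1e-05) and 1.52 (adjusted p = 0.0024) by limma-voom. Mfn2, a fusion protein of the outer membrane, fell by 6.73 after acute injury (SE 2.02, adjusted p = 0.0087), from a mean of 4.99 CPM to 0.0278 CPM. Healthy libraries ranged from 0 to 7.88 CPM and acute ones from 0 to 0.139 CPM, so the groups overlapped at 0 and the fall rests on few counts.

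Enzymes of the citric acid cycle and of pyruvate entry moved both ways: 8 of 22 rose and 7 fell after acute injury, 4 and 7 in fibrosis, and 3 and 5 in cirrhosis. The acute counts lay near the shares of all genes and so are no result about these enzymes. On library size the balance turned upward in fibrosis and cirrhosis, with 11 higher and 4 lower after acute injury, 10 and 7 in fibrosis, and 6 and 3 in cirrhosis. Idh3a, of the NAD-dependent isocitrate dehydrogenase, gave 2.74 after acute injury (adjusted p = 3.3e-08), and Pdk2, a kinase that restrains pyruvate dehydrogenase, -3.20 (adjusted p = 1.6e-04). Of the electron carriers and related genes, 3 rose and 1 fell of 9 after acute injury, 1 and 1 of 9 in fibrosis, and 0 and 3 of 10 in cirrhosis. On library size these counts were 4 and 1, 3 and 1, and 4 and 2, so that the cirrhosis balance turned. Slc25a4, the ADP/ATP carrier, gave 1.32 (adjusted p = 6.5e-04) after acute injury, and Etfb, an electron-transfer flavoprotein subunit, -2.70 (adjusted p = 6.6e-06). Cyc1, the cytochrome of complex III, gave -1.36 in cirrhosis (adjusted p = 3.1e-04).

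Genes of the cytosolic ribosome were higher in 46 of 78 cases and lower in 7 after acute injury, 51 and 5 of 79 in fibrosis, and 22 and 10 of 78 in cirrhosis (40 and 4 there on library size); many share reads with copies. Cholangiocyte markers were lower in 3 and higher in 1 of 5 after acute injury, 3 and 2 of 5 in fibrosis and 0 and 4 of 6 in cirrhosis. Lymphocyte markers were lower in 5 of 5, 3 of 6 and 2 of 8 at the 3 stages, and higher in 3 of 8 in cirrhosis. Of the neutrophil markers, 1 could be tested after acute injury and in fibrosis and was lower, and in cirrhosis 2 of 3 were higher and 1 lower. Their part in the values of the members was not tested.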
